A study of Rattus norvegicus with 4 samples.

Results

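Major histocompatibility complex (MHC) class I molecules carry peptides made inside a cell to its surface. This account describes the rat MHC loci and the genes that load and supply peptides to class I, in RNA sequencing data from HSC-T6 cells. HSC-T6 is a rat hepatic stellate cell line immortalised with the SV40 large T antigen, so every library comes from 1 established line and none from liver tissue. The 4 libraries comprised 2 of cells treated with GRK1, read here as ginsenoside Rk1 of the series title, and 2 of cells with no treatment. Ginsenoside Rk1 is a saponin of heat-processed ginseng, and its dose, duration and vehicle are not in the labels. Genes were taken by name: all 31 rows of the count table whose symbol starts with RT1-, the prefix of the rat MHC, plus B2m, Tap1, Tap2, Tapbp, Psmb8, Psmb9, Psmb10, Psme1, Psme2, Erap1 and Nlrc5. That made 42 of 32883 annotated genes, of which 21 are class I loci, 10 are class II loci and 11 serve light chain, loading or peptide supply. Of these 42 genes, 26 were abundant enough to be tested, namely 15 class I loci, 0 class II loci and all 11 others.

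Class I molecules consist of a polymorphic heavy chain, in rat the product of an RT1 locus, and the invariant light chain beta-2-microglobulin. Peptides are cut in the cytosol by the proteasome, pumped into the endoplasmic reticulum by the Tap1 and Tap2 transporter, trimmed by Erap1 and placed on the heavy chain with the help of tapasin, the product of Tapbp. Class I molecules are made by nearly all nucleated cells and their genes are raised by interferons and by the transactivator Nlrc5, whereas class II genes are largely kept to antigen-presenting cells and depend on the transactivator Ciita.

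Gene counts added up to 18008586 and 18125005 in the Rk1 libraries, against 20430930 and 18175053 in the untreated libraries. Levels are given as CPM, counts per 1000000 of the scaled library total, and 3 counts correspond to between 0.148 and 0.167 CPM. Every log2 fold change is Rk1 over untreated with its standard error (SE), and adjusted p is from edgeR's quasi-likelihood test with Benjamini-Hochberg adjustment over 12316 tested genes, with a threshold of 0.05. The labels do not state whether replicate libraries stem from separate cultures, so the p-values reflect the spread among these 4 libraries, part or all of which may be technical. Of 6 tested stellate and fibroblast markers, Col1a1, Col3a1 and the scarce Acta2 were lower with Rk1, while Pdgfrb (-0.31), Vim (-0.08) and Des (0.37) did not pass; Lrat, the enzyme of stellate retinoid storage, had 0 counts in all 4 libraries. Of 9 macrophage and dendritic markers, Cd14 was higher with Rk1 (log2 fold change 0.31, adjusted p = 0.0076), Cd68 and Itgax did not pass, and 6 were not tested. Of those 6, Ptprc, Adgre1 and Cd163 had 0 counts in all 4 libraries. Among 7 lymphocyte markers, 5 had 0 counts in all 4, including Ms4a1, Cd3d, Cd4 and Cd8a, and none had more than 2 counts in any library. Bulk RNA cannot tell fewer cells of a type from less RNA per cell.

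The start regions of 5 genes are shown because class I and loading genes are known to share interferon and NF-kB elements there. They are taken from RefSeq for assembly GRCr8, with 250 bases before the transcript start and 50 after, written 5′ to 3′ on the strand of the gene. Capitals mark matches to 3 motifs searched on both strands: the interferon-stimulated response element (ISRE) core, which is GAAA, any 2 bases and GAAA; an ISRE variant, which is GAA, any 2 bases and GAAAC; and the NF-kB consensus. The regions are RT1-A2 at chr20:4872621-4872920 (plus strand), RT1-S3 at chr20:2675278-2675577 (plus strand), B2m at chr3:129549080-129549379 (plus strand), Tap1 at chr20:4668494-4668793 (minus strand) and Psmb10 at chr19:50743243-50743542 (minus strand).
RT1-A2: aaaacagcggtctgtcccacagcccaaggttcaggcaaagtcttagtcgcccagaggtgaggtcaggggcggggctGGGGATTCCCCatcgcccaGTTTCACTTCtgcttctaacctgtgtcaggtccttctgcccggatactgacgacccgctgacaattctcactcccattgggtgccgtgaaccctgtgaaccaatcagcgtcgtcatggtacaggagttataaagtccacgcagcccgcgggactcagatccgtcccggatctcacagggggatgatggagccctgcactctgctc
RT1-S3: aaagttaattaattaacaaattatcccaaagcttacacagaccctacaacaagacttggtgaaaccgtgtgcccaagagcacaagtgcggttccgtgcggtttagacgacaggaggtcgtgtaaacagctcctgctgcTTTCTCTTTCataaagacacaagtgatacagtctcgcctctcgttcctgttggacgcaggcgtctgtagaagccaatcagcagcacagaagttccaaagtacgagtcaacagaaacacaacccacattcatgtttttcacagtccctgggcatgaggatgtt
B2m: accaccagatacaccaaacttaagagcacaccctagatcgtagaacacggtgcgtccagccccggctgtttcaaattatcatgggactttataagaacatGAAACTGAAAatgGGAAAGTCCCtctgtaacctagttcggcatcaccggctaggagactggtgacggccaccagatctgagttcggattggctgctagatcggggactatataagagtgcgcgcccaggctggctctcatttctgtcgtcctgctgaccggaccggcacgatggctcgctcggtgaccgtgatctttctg
Tap1: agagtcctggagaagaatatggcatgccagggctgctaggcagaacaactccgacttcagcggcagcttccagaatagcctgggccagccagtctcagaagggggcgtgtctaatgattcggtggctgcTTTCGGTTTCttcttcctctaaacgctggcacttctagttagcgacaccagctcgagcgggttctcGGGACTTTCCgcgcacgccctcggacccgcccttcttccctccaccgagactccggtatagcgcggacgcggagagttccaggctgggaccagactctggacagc
Psmb10: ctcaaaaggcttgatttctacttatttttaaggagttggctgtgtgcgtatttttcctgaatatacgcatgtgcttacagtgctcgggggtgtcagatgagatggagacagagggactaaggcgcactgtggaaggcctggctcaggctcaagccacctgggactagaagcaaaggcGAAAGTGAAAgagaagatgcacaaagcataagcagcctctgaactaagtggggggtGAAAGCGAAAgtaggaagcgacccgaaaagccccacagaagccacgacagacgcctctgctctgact
RT1-A2 held an ISRE variant match at positions -155 to -146 from the start, just after 2 overlapping NF-kB matches that cover -174 to -164. B2m held an ISRE core match at -150 to -141 and an NF-kB match at -137 to -128. Tap1 held both as well, at -121 to -112 and at -55 to -46. RT1-S3 held a single ISRE core match at -112 to -103, and Psmb10 held 2, at -73 to -64 and at -17 to -8.

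Across the 36 genes of the group with an entry in the RefSeq table, 10 start regions held the ISRE core (27.8%), against 3.92% of all 33469 start regions of the same length. They comprised 7 of 9 light chain, loading and supply genes, 3 of 18 class I loci and 0 of 9 class II loci. The ISRE variant, a motif added after the data had been seen, was in 6 of 18 class I loci and in 1.65% of all start regions. NF-kB matches stood in 10 of 36 (27.8%), against 7.51% of all. The CCAAT box was in all 9 class II loci matched and in 13 of 18 class I loci, against 37.5% of all. The interferon gamma-activated site TTCNNNGAA was in 2 of 36 (5.56%), against 8.87%, and the CRE core TGACG in 8 of 36 (22.2%), against 21.2%. An ISRE core was found in 4 of the 12 matched genes that were lower with Rk1 and in 5 of the 11 matched tested genes that were not. In the same split NF-kB matches stood in 2 of 12 and 6 of 11, and the ISRE variant in 2 of 12 and 5 of 11. The CRE core was in 2 of 12 and 5 of 11, TTCNNNGAA in 0 of 12 and 2 of 11, and the CCAAT box in 8 of 12 and 7 of 11. A match is a stretch of letters and was not tested for binding.

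With Rk1, 14 of the 26 tested genes were lower and 0 higher (53.8% lower). Of all tested genes, 10.5% were lower. The median log2 fold change was -0.37 over the 26 genes and 0.00 over all genes tested, and 24 of the 26 estimates were negative. Both Rk1 libraries lay below both untreated libraries in 19 of the 26 genes, which held for 30.9% of all tested genes, and the groups overlapped in the other 7. The changes were small, since 4 of the 14 reached 1.5-fold, namely RT1-S3, RT1-T24-3, RT1-T24-4 and Psmb10. Without Rk1 replicate 1, 9 genes were lower. The lowest count of any of the 26 genes in any library was 11, for RT1-CE3, so none of the 26 entered the test through 1 group alone.

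**Figure D1:**
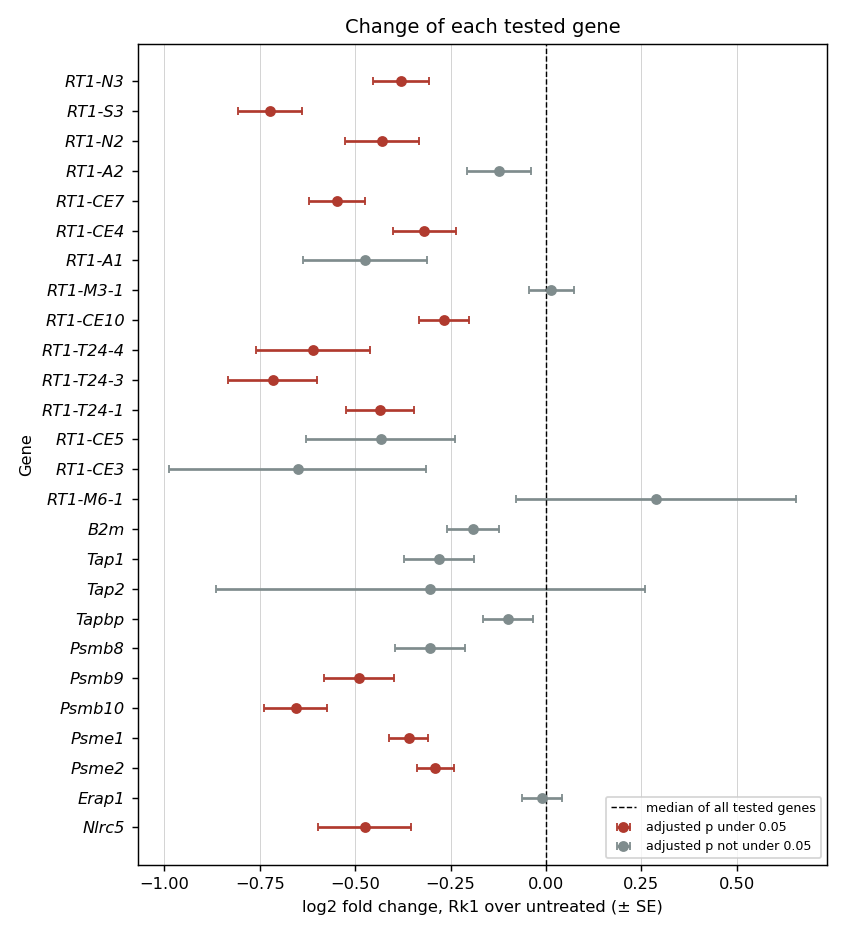
Log2 fold change of Rk1 over untreated (x axis) for the 26 tested genes (y axis), class I loci above and light chain, loading and supply genes below, with bars of 1 SE. Red points had an adjusted p under 0.05, and the dashed line at 0.00 is the median of all tested genes; all 14 red points lie to its left, between -0.72 and -0.27.

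Among class I loci, 9 of the 15 tested were lower with Rk1 and 0 higher, with a median log2 fold change of -0.43. RT1-N3 was the most abundant in untreated cells, followed by RT1-S3 and RT1-N2, and the 3 lie close together on chromosome 20. Together they held 57.2% ± 1.8 of all class I counts with Rk1 and 60.1% ± 0.053 without (SD, n = 2 each). Without untreated replicate 1, and likewise without Rk1 replicate 1, 5 class I loci were lower.

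RT1-S3, listed in RefSeq as the counterpart of mouse H2-T23, whose product presents leader peptides of other class I molecules to receptors of natural killer cells, showed the largest fall of the 15, with RT1-T24-3 close to it. Its level was 113 and 129 CPM in the Rk1 libraries, against 214 and 186 CPM in the untreated libraries. The higher Rk1 library lay well below the lower untreated one. The log2 fold change was -0.72 ± 0.08 (adjusted p = 0.0013), a level 60.6% of that in untreated cells. In Rnor_6.0, the build of the count table, RT1-S3 (ENSRNOG00000000777) lies on chromosome 20 at 3176107 to 3179818, plus strand, and its counts are summed over 1692 bases of exon.

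RT1-N3 (chromosome 20, 3167079 to 3170945) had 168 and 192 CPM with Rk1, against 244 and 224 CPM without. RT1-N2 (3146856 to 3150852) had 107 and 130 CPM with Rk1, against 171 and 149 CPM without. Both were lower in each Rk1 library than in either untreated one. RT1-N3 changed by -0.38 ± 0.07 (adjusted p = 0.0104) and RT1-N2 by -0.43 ± 0.10 (adjusted p = 0.0191). RT1-N2 did not pass without untreated replicate 1 (adjusted p = 0.0574), without Rk1 replicate 1 (0.056), by DESeq2 (0.0639) or with robust dispersions (0.119). An annotated antisense gene overlaps RT1-N3, RT1-S3 and RT1-T24-4, and the strand setting of the counting is not given in the sources used here, so reads of both strands cannot be told apart there.

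The 3 tested T24 loci, nonclassical genes that follow RT1-S3 along the chromosome, were all lower. RT1-T24-3 had 10.2 and 12.5 CPM with Rk1, against 19.4 and 18.0 CPM without, a log2 fold change of -0.72 ± 0.12 (adjusted p = 0.0055). RT1-T24-4 had 13.6 and 16.9 CPM with Rk1, against 26.2 and 20.3 CPM without (-0.61 ± 0.15, adjusted p = 0.0259). RT1-T24-1 had 13.6 and 14.0 CPM with Rk1, against 18.0 and 19.3 CPM without (-0.44 ± 0.09, adjusted p = 0.0133). In none of the 3 did the groups overlap. RT1-T24-4 did not pass without untreated replicate 1 (adjusted p = 0.0807) or Rk1 replicate 1 (0.106), nor RT1-T24-1 without Rk1 replicate 1 (0.0691) or by DESeq2 (0.0617).

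Most CE loci lie in 1 cluster on chromosome 20, and several of their gene models are nested in each other. RT1-CE7 had 46.9 and 52.8 CPM with Rk1, against 76.3 and 69.4 CPM without (-0.55 ± 0.07, adjusted p = 0.0023). RT1-CE4 had 39.2 and 45.6 CPM with Rk1, against 55.4 and 50.3 CPM without (-0.32 ± 0.08, adjusted p = 0.0311). The groups did not overlap at either locus. RT1-CE10 had 25.2 and 25.0 CPM with Rk1, against 29.7 and 30.7 CPM without (-0.27 ± 0.07, adjusted p = 0.0259). It stands apart in Rnor_6.0, at 154074 to 157861. In GRCr8 its start region, 3384930 to 3385229, lies near that of RT1-CE5, 3484041 to 3484340. RT1-CE4 did not pass without untreated replicate 1 (adjusted p = 0.142) or Rk1 replicate 1 (0.107), and RT1-CE10 did not pass with any 1 library left out (0.0597 to 0.0951) or by DESeq2 (0.178). RT1-CE5 had 10.1 and 14.7 CPM with Rk1, against 19.0 and 14.4 CPM without, which overlap, and did not pass (-0.43 ± 0.20, adjusted p = 0.158), except without Rk1 replicate 2 (0.0359); its estimate was -0.21 without untreated replicate 1 (0.519) and -0.19 without Rk1 replicate 1 (0.539). RT1-CE3 had 11 and 17 counts with Rk1, against 27 and 20 counts without, and did not pass either (adjusted p = 0.211).

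The classical RT1-A loci, whose products present peptides to cytotoxic T cells, did not pass the test. RT1-A2 had 75.0 and 78.5 CPM with Rk1, against 91.2 and 76.0 CPM without. Its groups overlapped, since untreated replicate 2 was level with the Rk1 libraries and untreated replicate 1 stood above them (-0.12 ± 0.08, adjusted p = 0.333). Without untreated replicate 1 its estimate was 0.02, and without untreated replicate 2 it was -0.26 and passed (adjusted p = 0.0319). RT1-A1 had 33.2 and 23.8 CPM with Rk1, against 44.2 and 34.8 CPM without. RT1-A1 lay apart between the groups by 4.87%, less than the spread inside each group (-0.48 ± 0.16, adjusted p = 0.0779). It passed without untreated replicate 2 (adjusted p = 0.0321) and without Rk1 replicate 1 (0.0115), and its estimate was -0.29 without untreated replicate 1 (0.275) and -0.25 without Rk1 replicate 2 (0.236). The RT1-A1 gene model, 5351605 to 5421098, spans that of RT1-A2 at 5374985 to 5378539. RT1-M3-1, whose mouse counterpart H2-M3 presents N-formylated peptides, had 36.8 and 35.5 CPM with Rk1, against 36.7 and 34.9 CPM without. All 4 libraries lay within a narrow band (0.01 ± 0.06, adjusted p = 0.898). RT1-M6-1 had 30 and 16 counts with Rk1, against 20 and 20 counts without (0.29 ± 0.37, adjusted p = 0.624), and without Rk1 replicate 1 the estimate was -0.24.

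**Figure D2:**
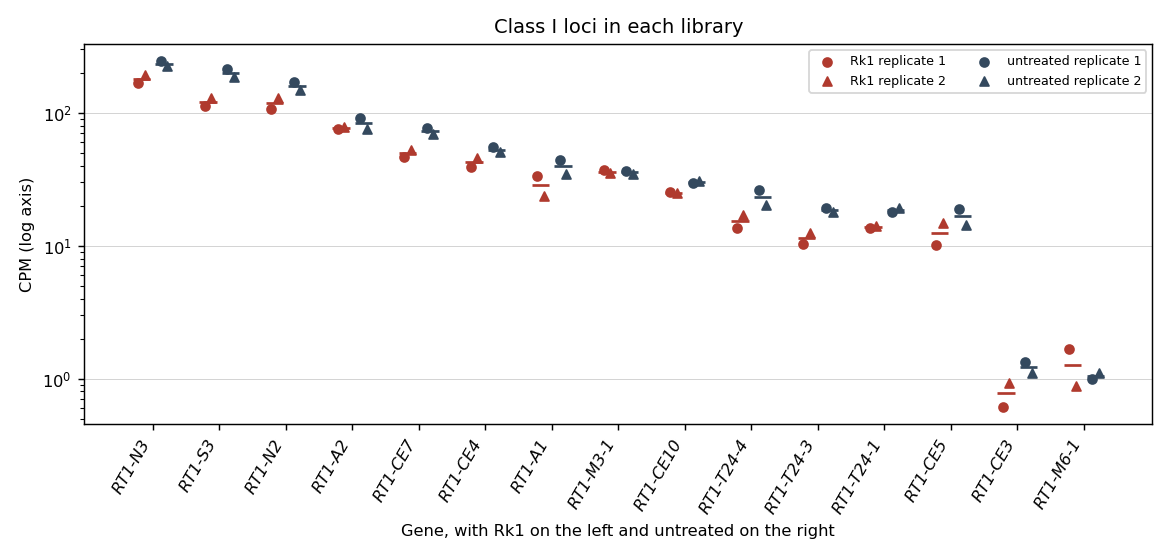
CPM (log axis) of the 15 tested class I loci (x axis, ordered by the untreated mean) in each library, with Rk1 in red on the left, untreated in blue on the right, and short bars for the means of 2 libraries. RT1-S3 and the T24 loci show a clear gap between the groups, whereas RT1-A2, RT1-M3-1, RT1-CE5 and RT1-M6-1 overlap.

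The remaining 6 class I loci were too scarce to test, with at most 3 counts in any library. RT1-S2 had 3 and 2 counts with Rk1 and 2 and 3 counts without. RT1-CE1 had 2 and 1 counts with Rk1 and 2 and 1 counts without. RT1-M5 and RT1-M6-2 had 1 count each, in untreated replicate 1, and RT1-M2 and RT1-M4 had 0 in all 4 libraries.

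Reads of similar class I loci can be shared or lost between rows, the more so as the reference sequence carries 1 haplotype and the labels do not give that of the line. The counts of all 21 class I rows were therefore also summed before the fit, so that the division of counted reads between rows does not matter. Reads counted in none of these rows are missing from the sum as well. The sum came to 695 and 772 CPM in the Rk1 libraries, against 1048 and 929 CPM in the untreated libraries, with no overlap. It changed by -0.43 ± 0.07 on the log2 scale (adjusted p = 0.0053), to 0.742 of the untreated level. The RT1-A loci summed alone did not pass (-0.23 ± 0.09, adjusted p = 0.115). Shares within the sum shifted with the loci. RT1-S3 made up 16.5% ± 0.25 of class I counts with Rk1 and 20.2% ± 0.33 without, RT1-A2 10.5% ± 0.44 with Rk1 and 8.44% ± 0.37 without, and RT1-M3-1 4.95% ± 0.50 with Rk1 and 3.63% ± 0.18 without (SD, n = 2 each).

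Apart from RT1-DMb in 1 library, no class II locus had more than 2 counts in any library, so the classes can be set side by side only in level. Counts over the 10 class II rows summed to 6 and 1 in the Rk1 libraries, against 3 and 32 in the untreated libraries, beside 12492, 14073, 21269 and 16904 class I counts in the same libraries. Of all RT1 counts, class II made up 0.0480% (exact binomial 95% interval 0.0176 to 0.104) in Rk1 replicate 1, 0.00711% (0.00018 to 0.0396) in Rk1 replicate 2, 0.0141% (0.00291 to 0.0412) in untreated replicate 1 and 0.189% (0.129 to 0.267) in untreated replicate 2. These intervals cover counting error only. Untreated replicate 2 stands above the others through 1 gene.

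That gene was RT1-DMb, the beta chain of the DM molecule that exchanges peptides on class II, with 1 and 0 counts with Rk1 and 0 and 26 counts without. RT1-Db1, a class II beta chain, had 1 and 1 counts with Rk1 and 1 and 2 counts without. RT1-DMa had 0 and 0 counts with Rk1 and 2 and 1 counts without. RT1-Ba and RT1-Da each had 1 and 0 counts with Rk1 and 0 and 1 counts without, RT1-DOa had 1 count in untreated replicate 2, and RT1-DOb and RT1-Bb had 1 count each in Rk1 replicate 1. RT1-Ha and RT1-Db2 had 0 counts in all 4 libraries. Without RT1-DMb, the sums were 5 and 1 counts with Rk1 and 3 and 6 counts without, a difference that this depth cannot show.

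Fitted as 1 feature, summed class II did not pass (log2 fold change -2.22 ± 1.15, adjusted p = 0.209), and without untreated replicate 2 the estimate was 0.37. The log2 ratio of class I to class II counts averaged 12.4 ± 1.95 with Rk1 and 10.9 ± 2.65 without (SD, n = 2 each), a difference of 1.48 (two-sided exact permutation p = 0.667, where 0.333 is the smallest that 2 against 2 libraries allow). Ciita, the class II transactivator, had 1 and 2 counts with Rk1 and 1 and 1 counts without. Cd74, the class II invariant chain, had 0 and 1 counts with Rk1 and 9 and 4 counts without. The summed level of the macrophage and dendritic marker list was 57.9 and 56.1 CPM with Rk1, against 47.5 and 44.4 CPM without, and consisted mostly of Cd14.

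None of the 4 light chain, transporter and loading genes passed the test. B2m, the light chain of every class I molecule, had 1968 and 2237 CPM with Rk1, against 2522 and 2279 CPM without. The higher Rk1 library came within 1.87% of the lower untreated one (-0.19 ± 0.07, adjusted p = 0.0911), and without Rk1 replicate 2 the test passed (0.0198). The B2m estimate was -0.11 without untreated replicate 1 (adjusted p = 0.367) and -0.10 without Rk1 replicate 1 (0.313). Per kilobase of exon, B2m stood at 1151 CPM with Rk1 and 1314 CPM without, far above the most abundant heavy chain, RT1-N3, at 99.4 CPM with Rk1 and 129 CPM without. The ratio of summed class I counts to B2m counts was 0.353 and 0.345 with Rk1, against 0.415 and 0.408 without. Both Rk1 ratios lay below both untreated ones, a log2 difference of -0.24 (two-sided exact permutation p = 0.333, the smallest possible).

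Tap1, a chain of the peptide transporter, had 175 and 201 CPM with Rk1, against 247 and 209 CPM without (-0.28 ± 0.09, adjusted p = 0.0679). The groups lay apart by a narrow 4.04%, and the test passed without untreated replicate 2 (adjusted p = 0.0134) or Rk1 replicate 2 (0.0343). The Tap1 estimate was -0.15 without untreated replicate 1 (adjusted p = 0.266) and -0.18 without Rk1 replicate 1 (0.249). Tap2, its partner chain, had 2.23 and 5.60 CPM with Rk1, against 7.34 and 2.25 CPM without, with Rk1 replicate 2 and untreated replicate 1 both high (-0.30 ± 0.56, adjusted p = 0.748). Without untreated replicate 1 the Tap2 estimate was 0.80, and without Rk1 replicate 1 it was 0.21. Another row of the table carries the Tap2 description, and the sum of both rows was 15.1 and 17.3 CPM with Rk1, against 20.9 and 12.3 CPM without (-0.03 ± 0.22, adjusted p = 0.935; chosen after seeing the data). Tapbp, which bridges the transporter and the empty heavy chain, had 184 and 199 CPM with Rk1, against 216 and 194 CPM without, and the groups overlapped (adjusted p = 0.322). Erap1, the aminopeptidase that trims peptides in the endoplasmic reticulum, had 225 and 241 CPM with Rk1, against 241 and 228 CPM without, and the groups overlapped too (-0.01 ± 0.05, adjusted p = 0.907).

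**Figure D3:**
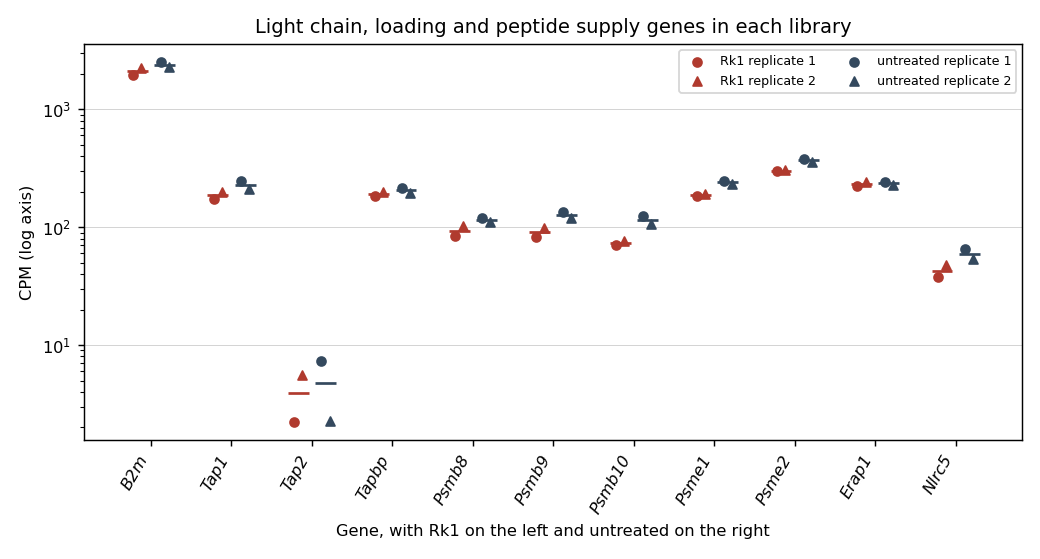
CPM (log axis) of the 11 light chain, loading, peptide supply and transactivator genes (x axis) in each library, with Rk1 in red on the left, untreated in blue on the right, and short bars for the means of 2 libraries. Psmb9, Psmb10, Psme1, Psme2 and Nlrc5 are separated between the groups. B2m, Tap1 and Psmb8 are separated by smaller gaps, Tapbp and Erap1 overlap, and Tap2 is low with a wide spread in both groups.

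The inducible proteasome subunits and the proteasome activator held 4 of the 5 lower genes outside the RT1 loci. Psmb10, which replaces Psmb7 in the immunoproteasome, had 70.2 and 76.6 CPM with Rk1, against 125 and 106 CPM without (-0.66 ± 0.08, adjusted p = 0.0018). Psmb9, which replaces Psmb6, had 82.0 and 99.2 CPM with Rk1, against 134 and 120 CPM without (-0.49 ± 0.09, adjusted p = 0.0097). The groups were clear of each other in both genes. Psmb8, which replaces Psmb5, had 84.0 and 102 CPM with Rk1, against 120 and 110 CPM without, and missed the threshold with the groups apart (-0.30 ± 0.09, adjusted p = 0.0519). It passed in 9 of 13 alternative settings, with an adjusted p of 0.0438 without untreated replicate 2 and 0.00591 without Rk1 replicate 2. The Psmb8 estimate was -0.24 without untreated replicate 1 (adjusted p = 0.163) and -0.17 without Rk1 replicate 1 (0.164).

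Psme1 and Psme2 encode the alpha and beta subunits of the PA28 activator, which caps the proteasome and alters the peptides it releases. Psme1 had 183 and 191 CPM with Rk1, against 249 and 231 CPM without (-0.36 ± 0.05, adjusted p = 0.0032). Psme2 had 297 and 306 CPM with Rk1, against 381 and 355 CPM without (-0.29 ± 0.05, adjusted p = 0.0061). Both genes lie close together on chromosome 15, at 34256071 to 34258947 and 34265557 to 34269851, and neither showed overlap between groups. Nlrc5, which switches on class I, B2m and loading genes, had 37.7 and 48.0 CPM with Rk1, against 65.0 and 54.0 CPM without (-0.48 ± 0.12, adjusted p = 0.0308). The lower untreated library was 12.7% above the higher Rk1 library. Nlrc5 did not pass without untreated replicate 1 (adjusted p = 0.114), without Rk1 replicate 1 (0.0937) or with robust dispersions (0.173). Of the 11 genes outside the RT1 loci 5 were thus lower, and 8 without Rk1 replicate 2.

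Each inducible subunit was set against the constitutive subunit it replaces, as a ratio of CPM per kilobase of exon. Psmb10 to Psmb7 was 0.777 and 0.969 with Rk1, against 1.36 and 1.06 without, a log2 difference of -0.47. Psmb9 to Psmb6 was 0.568 and 0.715 with Rk1, against 0.802 and 0.741 without, a log2 difference of -0.27. Psmb8 to Psmb5 was 0.641 and 0.790 with Rk1, against 0.879 and 0.813 without, a log2 difference of -0.25. In all 3 ratios both Rk1 libraries lay below both untreated ones, and each gave a two-sided exact permutation p of 0.333, the smallest that the design allows. Psmb6 was itself lower (-0.22 ± 0.05, adjusted p = 0.0152), whereas Psmb7 (-0.18 ± 0.07, adjusted p = 0.131) and Psmb5 (-0.06 ± 0.05, adjusted p = 0.391) did not pass. Without Rk1 replicate 1 Psmb7 passed (adjusted p = 0.0409), and Psmb6 did not pass without untreated replicate 1 (0.071) or Rk1 replicate 2 (0.0696).

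Within each group the genes also ranked the libraries alike. Untreated replicate 1 was above untreated replicate 2 in 23 of the 26 genes, Rk1 replicate 2 was above Rk1 replicate 1 in 22, and both held in 21 (80.8%). Over all tested genes both held in 21.3%. All 11 light chain, loading and supply genes showed both, as did 10 of the 15 class I loci. After each gene was centred on its mean, the median of the 26 genes was -0.28 in Rk1 replicate 1, -0.09 in Rk1 replicate 2, 0.26 in untreated replicate 1 and 0.10 in untreated replicate 2 on the log2 scale. The gap between the nearest libraries of the groups was thus similar to the gap inside each group, and the genes, which share these 4 libraries, are not independent measurements. What sets the order of the libraries was not tested.

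**Figure D4:**
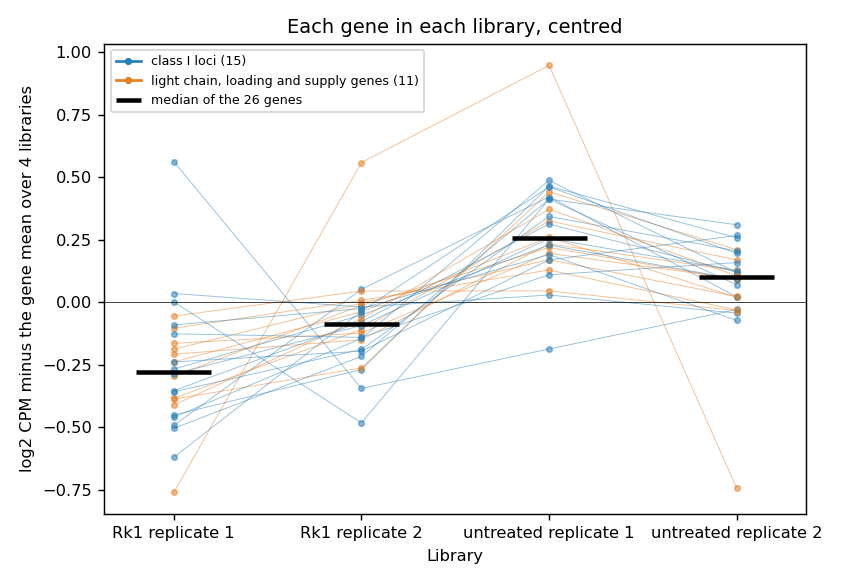
Log2 CPM of each of the 26 tested genes minus its own mean over the 4 libraries (y axis), by library (x axis), with thin lines joining the values of a gene and black bars for the median of the 26. The medians are -0.28 and -0.09 in the Rk1 libraries and 0.26 and 0.10 in the untreated libraries; Tap2 and RT1-M6-1 are the lines that swing widest.

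In Rnor_6.0 the RT1 rows span 154074 to 5421098 of chromosome 20, and Tap1, Tap2, Psmb8 and Psmb9 lie inside that stretch. Its first edge is set by RT1-CE10, which GRCr8 places near RT1-CE5. Of 302 other annotated genes there, 94 were tested. Of those, 6 were lower (6.38%) and 11 higher (11.7%), with a median log2 fold change of 0.01, against 10.5% lower and 11.5% higher among all tested genes. The lower class I loci lay among neighbours that moved in both directions. The 94 include LOC103690108, LOC100364500 and AABR07044364.1, described as class I antigens, and the other row described as Tap2. In each of those class I rows both Rk1 libraries lay below both untreated ones, which held for 30.9% of all tested genes. Of those rows only LOC103690108 was called lower, and AABR07044364.1 overlaps RT1-T24-1 on the same strand. Psmb10, Psme1, Psme2 and Nlrc5, which were also lower, lie on chromosomes 19 and 15.

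**Figure D5:**
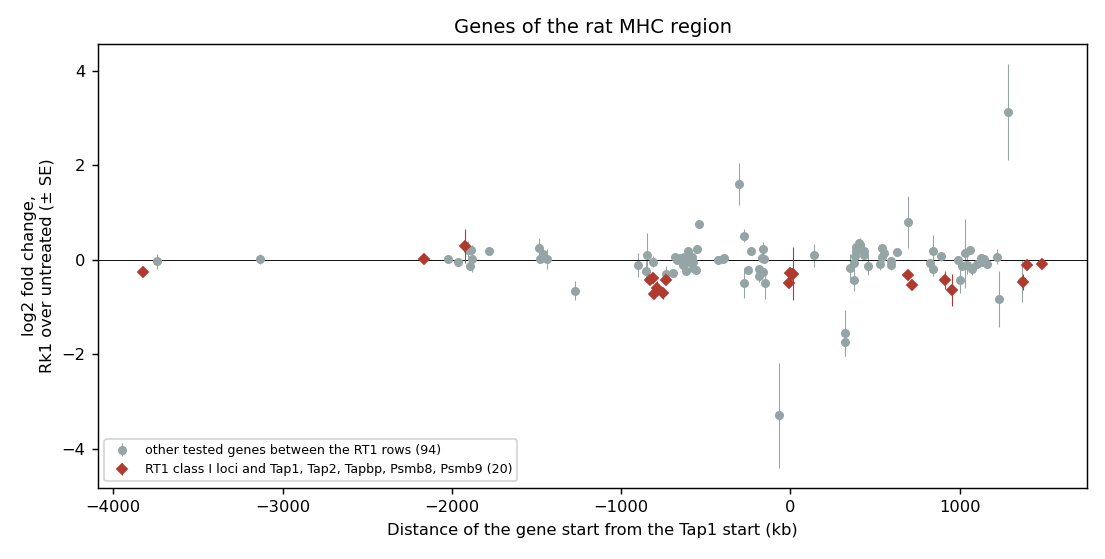
Log2 fold change of Rk1 over untreated with bars of 1 SE (y axis) against the distance of each gene start from the start of Tap1 in kilobases (x axis), for 20 tested RT1 and loading genes (red diamonds) and the 94 tested genes between the RT1 rows (grey). The diamonds lie at or below 0 apart from RT1-M3-1 and RT1-M6-1, and the grey points are spread on both sides with a median of 0.01; the grey points near -3.29 and 3.12 each rest on 1 high library and were not called.

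Around the class I pathway, 62 of 68 genes on 8 lists were tested, with 15 lower and 7 higher (24.2% and 11.3%, against 10.5% and 11.5% of all tested genes). Without untreated replicate 1, 8 were lower and 4 higher, and 2 were higher without untreated replicate 2 and 3 without Rk1 replicate 1. Among 7 genes listed for folding and loading in the endoplasmic reticulum, 4 were lower and 1 higher. Calr, calreticulin, which holds the heavy chain for loading, had 1666 and 1637 CPM with Rk1, against 2346 and 2314 CPM without (-0.50 ± 0.03, adjusted p = 0.00014). Pdia3, its oxidoreductase partner in the loading complex, had 928 and 931 CPM with Rk1, against 1188 and 1189 CPM without (-0.35 ± 0.04, adjusted p = 0.00067). Both gaps were wide beside the spread within groups. Hspa5, the general chaperone BiP, changed by -0.57 ± 0.04 (adjusted p = 0.00012) and Uggt1, the folding sensor of glycoproteins, by -0.26 ± 0.04 (adjusted p = 0.0054). These 4 serve secreted and membrane proteins at large, not class I alone, and the 1 higher gene of that list, Ugcg (0.23 ± 0.05, adjusted p = 0.0237), makes glucosylceramide and is not a chaperone; it is named after its value was seen.

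Among 17 interferon receptor, STAT and IRF genes, 6 were lower and 2 higher. Irf1, which binds the ISRE of class I and immunoproteasome genes, had 98.0 and 99.4 CPM with Rk1, against 132 and 117 CPM without (-0.34 ± 0.06, adjusted p = 0.0090). Irf7, an interferon-inducible factor, had 399 and 504 CPM with Rk1, against 864 and 730 CPM without (-0.82 ± 0.11, adjusted p = 0.0028). Both were lower in each Rk1 library than in either untreated one, as was Irf9 (-0.27 ± 0.06, adjusted p = 0.0171). Irf7 did not pass with robust dispersions (adjusted p = 0.108), nor Irf9 without untreated replicate 1 (0.0656) or Rk1 replicate 1 (0.0732). Irf8 and Stat2 were also lower, and the 2 higher were the receptor chain Ifnar1 (0.22 ± 0.06, adjusted p = 0.0371) and its kinase Tyk2 (0.19 ± 0.05, adjusted p = 0.0352), these 4 being named after their values were seen. Of these 17 genes, 6 ranked the libraries in both groups as most RT1 and loading genes did (35.3%).

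Of 7 constitutive proteasome and other activator genes 2 were lower, Psmb6 and the inhibitor Psmf1 (-0.32 ± 0.08, adjusted p = 0.0258). Among 7 peptidases Npepps was higher (0.29 ± 0.04, adjusted p = 0.0026) and Blmh lower (-0.18 ± 0.05, adjusted p = 0.0457). Of 8 tested genes of class II machinery 1 was lower, Rfx5 (-0.25 ± 0.05, adjusted p = 0.0141), a subunit of the factor that binds the promoters of both classes. Of 5 NF-kB subunits 1 was higher, Nfkb1 (0.17 ± 0.05, adjusted p = 0.0399). Of 7 tested class I-like genes outside RT1, 2 were higher and 0 lower: Ulbp1, which encodes a ligand of the killer cell receptor NKG2D (0.40 ± 0.06, adjusted p = 0.0051), and Cd1d1, which presents lipids (0.25 ± 0.06, adjusted p = 0.0229). Vcam1, an adhesion molecule for leukocytes and the only called gene of 4 tested co-signal genes, had 1.06 and 2.30 CPM with Rk1, against 7.00 and 4.51 CPM without (-1.77 ± 0.36, adjusted p = 0.0134). With 1 library left out, Nfkb1 passed in 0 of 4 cases (adjusted p = 0.0667 to 0.203). Cd1d1 passed in 1 of 4, without Rk1 replicate 1, and otherwise had adjusted p values of 0.0737 to 0.121, whereas Ulbp1, Npepps, Calr, Pdia3, Hspa5 and Uggt1 passed in all. Without untreated replicate 1, Vcam1 (0.055), Rfx5 (0.0695), Psmf1 (0.0953) and Blmh (0.143) did not pass. Without Rk1 replicate 1 Psmf1 (0.0807), and without Rk1 replicate 2 Rfx5 (0.0595) and Blmh (0.202), did not pass either, nor did Blmh without untreated replicate 2 (0.0943).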

How the data were processed

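RNA sequencing of HSC-T6 cells gave 2 Rk1 and 2 untreated libraries, grouped by the treatment in the labels. Raw counts for each gene, with symbols, exon lengths and Rnor_6.0 positions, were deposited as 1 table, per the file headers. HISAT2 and HTSeq are named, per the submitters' processing notes, without versions. How strand and multiply matching reads were handled is not given in the sources used here. Thus similar RT1 loci may share or lose reads, and 15 of the 26 tested genes overlap another annotated gene.

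The filter filterByExpr kept 12316 of 32883 genes at a minimum count of 10 and a minimum total of 15. The whole table was scaled by TMM and fitted with edgeR 4.0.16 (R 4.3.3), two-sided, on group alone, Benjamini-Hochberg adjustment and a threshold of 0.05. Class sums replaced their rows in the same fit. CPM are the deposited counts over scaled library totals, which ranged from 18008586 to 20430930 before scaling, and means and SDs are over 2 libraries. Counts of the 2 libraries of a group differed beyond sampling noise, with a chi-square of 4.49 per degree of freedom for Rk1 and 4.39 for untreated, so neither pair looks like 1 library deposited again. On simulated data for this comparison with 12316 genes, the test recovered 40% of genes changed 1.25-fold, 86% at 1.5-fold and 100% at 2-fold. The simulation changed no scarce genes and gave all genes the same dispersion. Its rates therefore do not apply to scarce or variable genes such as RT1-CE3 and Tap2. Alternatives were DESeq2 1.42.0, limma-voom 3.58.1, robust dispersions, other scalings, filters and thresholds, a replicate block, and fits without 1 library, which take the lone library of a group to vary as the other group does.

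The genes and lists were chosen with earlier results of these data known. All tested genes of the group are given values; from each other list up to 4 called genes with the smallest adjusted p are named, plus Irf1, Ciita, Cd74, Psmb5, Psmb6 and Psmb7. Values of some list and marker genes are not reported here. Start regions came from RefSeq (GRCr8), which had entries for 36 of the 42 genes, without Erap1, Nlrc5, RT1-CE7, RT1-DMb, RT1-M2 and RT1-M4.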

Additional observations from a re-analysis of the deposited data

How the results depend on the processing

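Of the 14 lower genes, 7 had an adjusted p under 0.01 and 4 also reached 1.5-fold, for class I loci 3 and 3 of 9, and for the other genes 1 of 5 reached 1.5-fold. With 1 library left out, lower genes numbered 9 to 17, class I loci 5 to 10 and the others 4 to 8, while higher genes stayed at 0. Other pathway genes numbered 8 to 14 lower and 2 to 5 higher, and 2 were higher by DESeq2 and 4 with upper-quartile scaling. Psmb9, Psmb10, Psme1, Psme2, RT1-CE7, RT1-N3, RT1-S3 and RT1-T24-3 were called in all 13 alternative settings. The summed class I change lay between -0.52 and -0.34 with 1 library left out, was -0.4035 with class I rows of other symbols (added after seeing the data) and -0.2274 for the RT1-A loci alone. Summed class II ranged from -3.93 to 0.37, being -3.14 without untreated replicate 1 and 0.3679 without untreated replicate 2. Without untreated replicate 1, the untreated side is 1 library with 32 class II counts, 26 of them RT1-DMb. Without untreated replicate 2, class I minus class II was -0.3893 (range -0.39 to 3.36). The log2 differences of the subunit ratios stayed below 0, from -0.40 to -0.098 for Psmb8 to Psmb5, -0.44 to -0.11 for Psmb9 to Psmb6 and -0.65 to -0.30 for Psmb10 to Psmb7.

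Estimates that turned were all of genes not called: RT1-M3-1 was -0.01349 with upper-quartile scaling, -0.02806 without untreated replicate 2 and -0.01221 without Rk1 replicate 1, with a highest value of 0.05311 without untreated replicate 1. Without untreated replicate 1, Tap2 was 0.7967, Erap1 0.03062 and RT1-A2 0.01702. Without Rk1 replicate 1, Tap2 was 0.2127, Erap1 0.03868 and RT1-M6-1 -0.2431. At the other end, without Rk1 replicate 2, Tap2 was -1.113, Erap1 -0.06079 and RT1-M6-1 0.68, and RT1-A2 was -0.2552 without untreated replicate 2. The cause was not tested. With the replicate block 16 genes were lower, 10 of them class I loci and 6 others, and summed class I was -0.43 (adjusted p = 0.0063); RT1-A1 (0.00226) and Psmb8 (0.0485) passed there. The replicate numbers are not stated to pair the samples, and the replicate differences of the 2 groups correlated at 0.0505 over all tested genes and at -0.738 over the 26. DESeq2 gave no adjusted p for summed class II. With 2 libraries per group and 2 residual degrees of freedom, changes near 1.25-fold were often missed in simulation, and class II loci other than RT1-DMb had at most 2 counts in any library.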

Other observations

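The table also held 6 rows on chromosome 20 whose descriptions name a class I antigen but whose symbols do not start with RT1-, of which 3 were tested. LOC103690108 had 108 ± 3.0 CPM with Rk1 and 125 ± 9.6 CPM without (SD, n = 2 each), a log2 fold change of -0.21 ± 0.06 (edgeR adjusted p = 0.0498). LOC100364500 had 2.76 ± 0.44 CPM with Rk1 and 4.38 ± 0.34 CPM without (-0.66 ± 0.20, adjusted p = 0.0530), and AABR07044364.1 had 7.70 ± 1.6 CPM with Rk1 and 9.52 ± 0.95 CPM without (-0.31 ± 0.17, adjusted p = 0.228).

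Some genes near Tap2 appear in 2 rows of the table at separate positions of chromosome 20. Rows described as Tap2 lie at 3995544 to 4009587 and at 5198258 to 5212624, rows described as Brd2, a bromodomain protein gene, at 3910555 to 3917426 and at 5262120 to 5269337, and both chains of DM have a second row between the second Tap2 and Brd2 rows. The first Brd2 row had 41 and 50 counts with Rk1, against 944 and 46 counts without, and the second had 28 and 392 counts with Rk1, against 29 and 22 counts without. Summed over both rows, Brd2 had 69 and 442 counts with Rk1 and 973 and 68 counts without. The Tap2 row at the first position, with 40 and 102 counts with Rk1 and 149 and 41 counts without, was high in the same 2 libraries, Rk1 replicate 2 and untreated replicate 1. The 26 RT1-DMb counts came from untreated replicate 2, and the other row described as DM beta chain had 2 and 1 counts with Rk1 and 0 and 1 counts without. The part of read assignment between these copies was not tested.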
